A study of Mus musculus with 15 samples.

Results

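Lung nodules of D2.A1 cells with spindle morphology were compared with epithelial nodules of the same line, to learn which genes separate the 2 tumor forms. D2.A1 is a metastatic mouse mammary cancer line of the D2.HAN lineage. The nodules were chosen by the histology and the cell line of their labels, and they are 10 of the 15 arrays of the series, 5 spindle and 5 epithelial. The spindle side holds 3 nodules of D2.A1 2D (unprimed cells from tissue culture plates) and 2 nodules of D2.A1 3D (primed cells, kept for 3 to 5 days on Cultrex reconstituted basement membrane extract). The epithelial side is built the same way, with 3 nodules of D2.A1 2D and 2 of D2.A1 3D. All hosts were young female BALB/c mice, syngeneic with the line, and they received the cells through a lateral tail vein. The labels name no drug or engineered allele, and the study's methods describe D2.HAN cells made to express firefly luciferase, which the labels of these nodules do not mention. The 5 nodules of the sister line D2.OR, 2 of 2D and 3 of 3D culture, are all labelled spindle and did not enter the comparison.

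Tumor cells that settle in the lung can keep an epithelial form, with keratins and cell junctions, or take a spindle form that resembles mesenchymal cells. A growing nodule also takes in or displaces cells of the host, among them endothelial cells of the vessels, macrophages and the alveolar cells that make surfactant. In this study the epithelioid nodules lay in the lung parenchyma and the spindle nodules at the pleural surface, so morphology and site cannot be told apart. Nodules were picked by their shape under the microscope and cut by laser from stained lung sections, after fixation in formalin and embedding in paraffin. Each array is called a nodule here, though neither the labels nor the methods say whether tissue of several nodules was pooled. A nodule holds tumor and host cells, so fewer cells of a type and less RNA per cell cannot be told apart either. The labels name no mouse, and fewer mice than nodules were used, so that some nodules share a mouse. The spread in every test is that of arrays, called nodules here. Their p-values can be too small where nodules of a mouse stand on one side, or too large where they stand on both.

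The values are signals on a log2 scale from Robust Multi-array Average (RMA), so a difference of 1 is a doubling. Array medians over all transcript clusters lay between 1.83 and 1.91, and the arrays correlated with each other at 0.883 to 0.957. No detection calls were used, the number of arrays limits the precision, and the median of the 22180 genes had a mean signal of 1.93. Both sides carried RNA of vimentin and of simple keratins. Vim, the intermediate filament of mesenchymal cells, lay at 9.58 to 9.93 in spindle and 9.58 to 10.11 in epithelial nodules. Krt8, a keratin of simple epithelia, lay at 4.15 to 5.92 in spindle and 5.50 to 6.02 in epithelial nodules. Lung RNA was present on both sides as well, since Sftpc, the surfactant protein that defines alveolar type II cells, lay at 4.88 to 8.60 in spindle and 7.57 to 8.74 in epithelial nodules.

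No gene passed the test of spindle against epithelial nodules. With limma and culture history as a term, 0 of 22180 genes (0%) had an adjusted p under 0.05 after Benjamini-Hochberg adjustment. The lowest adjusted p was 0.0634, which 8 genes shared, and 24 genes lay under 0.1, 14 of them higher and 10 lower in spindle nodules. At an unadjusted p under 0.05, 720 genes (3.25%) were higher and 1336 genes (6.02%) were lower. The 5 spindle and 5 epithelial values did not overlap for 128 genes with higher values in spindle nodules (0.577%) and for 179 genes with lower values (0.807%). A plain analysis of variance also called 0 genes after adjustment, with 707 higher and 1040 lower before it. Other fits that kept all nodules called between 0 and 9 genes, 8 of those 9 being higher in spindle nodules. Without spindle 2D replicate 2 the count was 30, with 15 genes in each direction. Every gene difference below is therefore a value that did not pass in this test. Some of these genes were called by other fits, and such calls are given beside several of them. For the whole comparison, 12 genes in each direction were named because their values did not overlap at an unadjusted p under 0.01. In those genes the lack of overlap follows from the choice and is no added evidence.

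The brighter genes lay lower in spindle nodules as a whole. The median difference, spindle minus epithelial, was -0.003 for the 19256 genes with a mean signal under 3, -0.17 for the 2357 genes from 3 to 5, and -0.19 for the 567 genes of 5 and above. The median of the brightest of these classes lay at 6.30, 6.45 and 5.76 in spindle 2D nodules 1 to 3 and at 6.27 and 5.97 in spindle 3D nodules 1 and 2. It lay at 6.35, 6.20, 6.22, 6.37 and 6.49 in the epithelial nodules, so spindle 2D nodule 3 and spindle 3D nodule 2, called the dim spindle nodules below, stood under all others. Of the genes at an unadjusted p under 0.05, 35% were higher in spindle nodules, against 52.8% after cyclic loess between arrays and 47.8% after quantile normalization. Of the 2924 genes with a mean signal of 3 or above, 19.1% were lower and 3.15% higher at an unadjusted p under 0.05, against 4.04% lower and 3.26% higher below 3. Counts for the main gene groups are also given after loess and without these 2 nodules, a choice made after the data were seen, which leaves fewer arrays for the test.

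**Figure D1:**
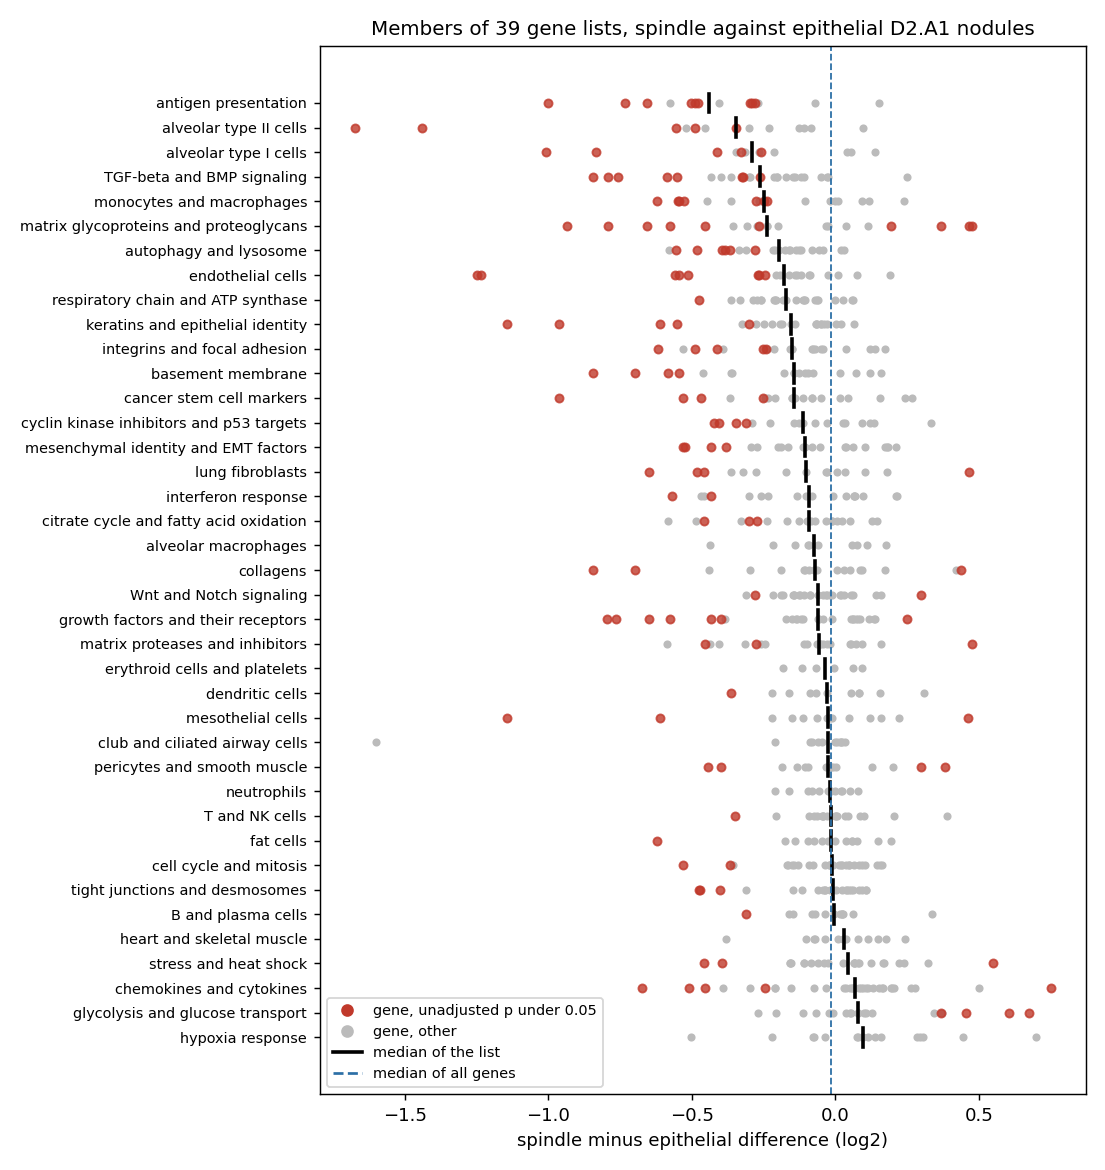
Differences of single genes in 39 gene lists, in log2 units on the horizontal axis, spindle minus epithelial. Each point is a gene, red where its unadjusted p is under 0.05, black bars are list medians, and the dashed line is the median of all genes at -0.02. Antigen presentation has the lowest median at -0.44 and hypoxia response the highest at 0.10.

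Endothelial genes, those of the inner lining of blood vessels, had lower signals in spindle nodules. Of 20 measured endothelial genes, 8 were lower and 0 were higher at an unadjusted p under 0.05, where 6.02% of all genes were lower, and 4 of the 8 did not overlap. Their median difference was -0.18, against -0.02 over all genes. The summed level, as the list mean, was 2.20 to 2.37 in spindle and 2.47 to 2.70 in epithelial nodules, with no overlap. All 4 members with a mean signal of 3 or above were lower, where 19.1% of all genes at that level were. The count was 8 after loess, 5 without the dim spindle nodules and 7 to 9 with each nodule left out. Cdh5, the VE-cadherin of endothelial junctions, had signals of 3.60, 4.48 and 3.02 in spindle 2D and 4.31 and 4.31 in spindle 3D nodules, against 4.97, 4.82 and 5.05 in epithelial 2D and 5.46 and 5.66 in epithelial 3D nodules. All spindle values lay below all epithelial ones. The difference was -1.25 (95% confidence interval -1.71 to -0.79), a 2.37-fold lower signal, with an adjusted p of 0.0867 by limma. It was called without spindle 2D replicate 2 (adjusted p = 0.0125), and its adjusted p lay between 0.0541 and 0.774 under the other settings.

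Other endothelial genes showed the same side. Plvap, which forms the diaphragms of endothelial pores, lay at 3.08, 4.29 and 3.03 in spindle 2D and 3.11 and 3.77 in spindle 3D nodules, against 4.56, 5.13 and 4.23 in epithelial 2D and 4.49 and 5.04 in epithelial 3D nodules. The groups overlapped only through spindle 2D nodule 2, and the difference of -1.23 (adjusted p = 0.203 by limma) was called without spindle 2D replicate 2 (adjusted p = 0.0329). Its adjusted p was 0.012 with the replicate number as a block, a number not known to pair nodules, and up to 0.999 in other settings. Pecam1, the endothelial adhesion molecule CD31, averaged 3.29 ± 0.21 in spindle and 3.80 ± 0.09 in epithelial nodules (SD, n = 5 each) and did not overlap. Cldn5, the claudin of endothelial tight junctions, averaged 2.22 ± 0.13 in spindle and 2.78 ± 0.37 in epithelial nodules, also without overlap. Eng, a co-receptor of TGF-beta ligands on endothelium, averaged 3.26 ± 0.40 in spindle and 3.80 ± 0.32 in epithelial nodules and overlapped. Pecam1 is named as a defining marker outside the rule for named genes.

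Epas1 (HIF-2alpha), an oxygen-regulated factor abundant in lung endothelium, lay at 2.90, 3.34 and 2.22 in spindle 2D and 2.52 and 2.61 in spindle 3D nodules, against 3.77, 3.53 and 4.10 in epithelial 2D and 3.82 and 4.22 in epithelial 3D nodules. The values did not overlap, and the difference was -1.17 (95% confidence interval -1.61 to -0.73, adjusted p = 0.093 by limma). Sparcl1, a matrix-associated glycoprotein, averaged 4.41 ± 0.61 in spindle and 5.75 ± 0.34 in epithelial nodules (SD, n = 5 each), again without overlap. Without spindle 2D replicate 2, both were called, Epas1 at an adjusted p of 0.0225 and Sparcl1 at 0.046, and the highest adjusted p over the settings was 0.643 for Epas1 and 0.999 for Sparcl1, both with the mean of alveolar type II genes as a covariate, where the differences were -0.73 and -0.77.

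Basement membrane, which lies under endothelium and epithelium, had 4 of 18 measured genes lower and 0 higher at an unadjusted p under 0.05. All 4 were among the 9 members at 3 and above, where 19.1% of all genes were lower. The count was 4 after loess and 3 without the 2 dim spindle nodules. Col4a2, a chain of the network-forming collagen IV, lay at 3.00 to 3.91 in spindle and 4.01 to 4.84 in epithelial nodules and did not overlap. Its difference was -0.85 (standard error 0.17, adjusted p = 0.188 by limma). Its partner chain Col4a1 differed by -0.70 (standard error 0.20), and Hspg2, the proteoglycan perlecan, by -0.55 (standard error 0.14). Lama5, a laminin chain, differed by -0.58 (standard error 0.24), and in spindle 2D nodule 3 it lay at 3.35, far under the other spindle values of 4.47 to 4.78. Without that nodule the Lama5 difference was -0.34.

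**Figure D2:**
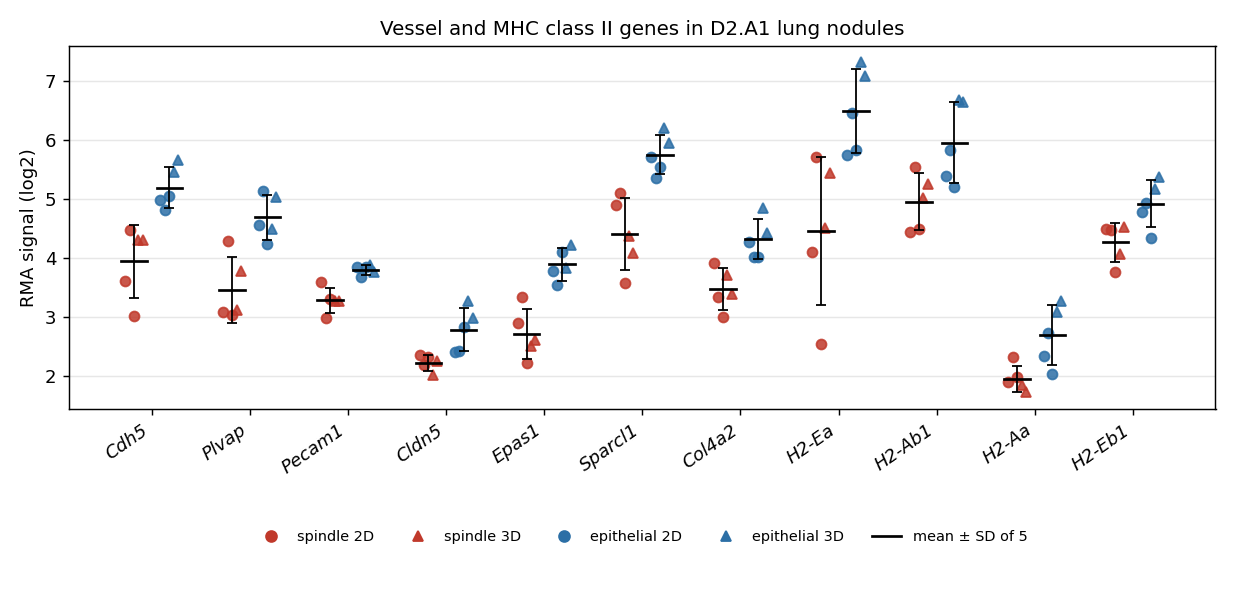
RMA signal on a log2 axis for vessel and MHC class II genes, spindle in red left of epithelial in blue, with circles for 2D and triangles for 3D nodules and black bars for the mean ± SD of 5. Cdh5, Pecam1, Cldn5, Epas1, Sparcl1, Col4a2 and H2-Ea do not overlap between the sides.

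Genes that present antigen had lower signals in spindle nodules too. MHC class II molecules load peptides in endosomes of dendritic cells, macrophages and B cells, and the transactivator Ciita turns on their genes through an upstream region with an X box and a Y box. Interferon-gamma can raise them in epithelial and tumor cells as well. The Y box holds the letters TGATTGG, which bind NF-Y. In RefSeq promoter windows of GRCm38.p6, from 250 bases before to 50 bases after a start, these letters or their reverse complement CCAATCA were found in 7.82% of 32851 windows. Of the 10 antigen presentation genes with a window, 6 held the letters. Whether the letters go with lower signals was not tested. The windows of H2-Aa, H2-Eb1 and H2-DMb1, which all hold the letters, are shown only to place this element. Each is given as 100 bases with the Y-box letters in capitals.
H2-Aa: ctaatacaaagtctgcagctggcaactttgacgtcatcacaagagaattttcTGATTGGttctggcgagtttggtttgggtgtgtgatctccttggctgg
H2-Eb1: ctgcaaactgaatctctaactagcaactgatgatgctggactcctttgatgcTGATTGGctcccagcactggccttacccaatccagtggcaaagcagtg
H2-DMb1: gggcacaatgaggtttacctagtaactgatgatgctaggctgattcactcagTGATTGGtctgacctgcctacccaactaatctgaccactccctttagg
H2-Aa is shown from chr17:34287826-34287925 on the minus strand, H2-Eb1 from chr17:34305754-34305853 and H2-DMb1 from chr17:34153076-34153175 on the plus strand. The 2 windows of H2-DMa do not hold the letters, and H2-Ab1 and H2-Ea had no entry.

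Of 14 measured genes of antigen presentation, 9 were lower (unadjusted p under 0.05) and 0 higher, where 6.02% of all genes were lower. The median difference was -0.44, against -0.02 over all genes, and 13 of the 14 differences lay below 0. Such a sign count is not particular to this list, since 20 of 23 genes of the respiratory chain also lay below 0, against 6 of 20 of glycolysis. After loess 6 genes were lower and the median was -0.27, and without the 2 dim spindle nodules 5 were lower and the median was -0.30. With all 15 arrays 4 were lower. Of the 8 members at 3 and above 5 were lower, where 19.1% of all genes at that level were. H2-Ab1, the class II beta chain of the A molecule, had signals of 4.43, 5.54 and 4.50 in spindle 2D and 5.03 and 5.26 in spindle 3D nodules, against 5.39, 5.83 and 5.21 in epithelial 2D and 6.68 and 6.65 in epithelial 3D nodules. The 2D nodules overlapped and the 3D nodules did not. The difference was -1.0 (95% confidence interval -1.52 to -0.48, adjusted p = 0.267 by limma), which was called at 0.0225 without spindle 2D replicate 2 and reached 0.999 elsewhere.

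H2-Aa, its alpha chain, averaged 1.95 ± 0.22 in spindle and 2.69 ± 0.51 in epithelial nodules, and H2-Eb1, a beta chain of the E molecule, 4.26 ± 0.33 in spindle and 4.92 ± 0.40 in epithelial nodules (SD, n = 5 each). The H2-Aa spindle values, 1.727 to 2.315, lie around the median gene at 1.93, where signal cannot be told from background. Its difference was -0.30 within 2D and -1.38 within 3D. H2-DMb1, a subunit of the peptide-exchange factor whose window carries the same Y-box letters, averaged 1.74 ± 0.22 in spindle and 1.59 ± 0.19 in epithelial nodules. H2-DMa, its partner subunit, averaged 2.58 ± 0.14 in spindle and 2.86 ± 0.13 in epithelial nodules and did not overlap. The signal of H2-DMb1 lies below that of the median gene, so that nothing is read from its direction. The largest difference belonged to H2-Ea, the alpha chain of the E molecule, which is in no list. It lay at 4.10, 5.70 and 2.54 in spindle 2D and 4.51 and 5.44 in spindle 3D nodules, against 5.74, 6.46 and 5.83 in epithelial 2D and 7.32 and 7.08 in epithelial 3D nodules. No value overlapped, although spindle 2D nodule 2 came close to epithelial 2D nodule 1, and the difference was -2.03 (95% confidence interval -3.03 to -1.02, adjusted p = 0.249 by limma), a 4.07-fold lower signal. It was called without spindle 2D replicate 2 (adjusted p = 0.0225), and with the type II mean as a covariate the difference was -1.10 (adjusted p = 0.999).

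Class I genes followed with smaller differences. B2m, the light chain shared by class I molecules, averaged 10.34 ± 0.40 in spindle and 10.82 ± 0.23 in epithelial nodules, and H2-K1, a classical heavy chain, 4.85 ± 0.32 in spindle and 5.34 ± 0.40 in epithelial nodules (SD, n = 5 each). Both overlapped, and both, like H2-DMa and H2-DMb1, were named after their values were seen. In the other direction, H2-Q10, a secreted class I molecule known from the liver, had signals of 4.65, 4.29 and 5.67 in spindle 2D and 3.84 and 4.46 in spindle 3D nodules, against 2.65, 1.76 and 3.16 in epithelial 2D and 2.05 and 2.31 in epithelial 3D nodules. All spindle values lay above all epithelial ones, by 2.20 on average (95% confidence interval 1.55 to 2.84, adjusted p = 0.0634 by limma), a 4.58-fold higher signal. It was called under 6 settings, among them all 15 arrays (adjusted p = 0.0469), a robust variance trend (0.0168) and array weights (0.0494), and its adjusted p reached 0.594 under the others. H2-Q10 has close relatives among the class I genes, so its probes may not separate them.

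Markers of macrophages lay lower in spindle nodules as well. Of 17 measured genes of monocytes and macrophages 7 were lower and 0 higher at an unadjusted p under 0.05, where 6.02% of all genes were lower. The list mean was 3.10 to 3.59 in spindle and 3.47 to 3.67 in epithelial nodules. Of the 9 members at 3 and above 5 were lower, where 19.1% of all genes at that level were. After loess 4 were lower, without the 2 dim spindle nodules 2 and with all 15 arrays 1. The count was also 4 without spindle 2D replicate 3 or epithelial 3D replicate 1. Csf1r, the receptor that macrophages need for survival, averaged 3.19 ± 0.17 in spindle and 3.74 ± 0.16 in epithelial nodules (SD, n = 5 each) and did not overlap. C1qa, a complement subunit made by macrophages, lay at 4.79 to 5.83 in spindle and 5.92 to 6.20 in epithelial nodules, also without overlap. C1qb, its partner, averaged 3.96 ± 0.57 in spindle and 4.50 ± 0.16 in epithelial nodules, and Lgmn, a lysosomal protease, 5.20 ± 0.39 in spindle and 5.72 ± 0.24 in epithelial nodules. Their part in the class II values was not tested. At that threshold 1 gene each was lower among 13 of B and plasma cells, 11 of dendritic cells and 18 of T and NK cells, and 0 among 14 of neutrophils and 10 of alveolar macrophages. Counts of 0 or 1 in such short lists do not stand apart from the share over all genes. Many of these genes also lie near background. Above the median gene were 6 of the 13, 7 of the 11, 9 of the 18, 5 of the 14 and 8 of the 10.

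Among the 16 cell type lists, the mean of alveolar type II genes spread most between spindle nodules. Of 13 measured type II genes 5 were lower and 0 higher, and of 12 type I genes 5 were lower and 0 higher, at an unadjusted p under 0.05. In each list 3 of the 5 members at 3 and above were lower, where 19.1% of all genes at that level were. Sftpc had signals of 8.60, 8.50 and 5.35 in spindle 2D and 4.88 and 5.66 in spindle 3D nodules, against 8.24, 8.41 and 8.74 in epithelial 2D and 7.57 and 8.41 in epithelial 3D nodules. Spindle 2D nodules 1 and 2 thus matched the epithelial nodules, while the other 3 spindle nodules lay under all of them. The difference was -1.68 (95% confidence interval -2.95 to -0.40, adjusted p = 0.428 by limma). Sftpb, a second surfactant protein, split the same way, with 6.04 and 5.86 in spindle 2D nodules 1 and 2 and 3.11 to 3.61 in the other 3 spindle nodules, against 5.27 to 6.62 in epithelial nodules. The type II list mean was 3.94, 3.94, 2.96, 2.78 and 2.95 in spindle nodules, against 3.74, 3.95, 3.99, 3.49 and 3.81 in epithelial nodules.

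Lyz2, the lysozyme of type II cells and macrophages, averaged 5.92 ± 0.54 in spindle and 6.48 ± 0.20 in epithelial nodules. Emp2, a membrane protein of type I cells, averaged 5.47 ± 0.87 in spindle and 6.48 ± 0.29 in epithelial nodules, and Ager, the receptor that marks type I cells, 4.31 ± 0.81 in spindle and 5.14 ± 0.34 in epithelial nodules (SD, n = 5 each). Hopx, a homeodomain protein of type I cells, averaged 2.16 ± 0.22 in spindle and 2.57 ± 0.30 in epithelial nodules. After loess 5 type II and 3 type I genes were lower, and without the 2 dim spindle nodules 1 type II and 3 type I genes. The type I count was also 3 without spindle 3D replicate 1, epithelial 3D replicate 1 or epithelial 3D replicate 2. Scgb1a1, the secretoglobin of club cells, lay at 6.93 in spindle 2D nodule 1 and at 1.73 to 2.09 in the other spindle nodules, against 1.53 to 6.54 in epithelial nodules, and of 12 airway genes 0 were lower at an unadjusted p under 0.05. With the type II list mean as a covariate, 5 endothelial genes were lower at an unadjusted p under 0.05, against 1 gene of antigen presentation, 1 of macrophages and 1 of the basement membrane. With that covariate 459 genes of all were higher and 492 lower, and 0 were called by adjusted p. The part of alveolar tissue in the other differences was not tested further.

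**Figure D3:**
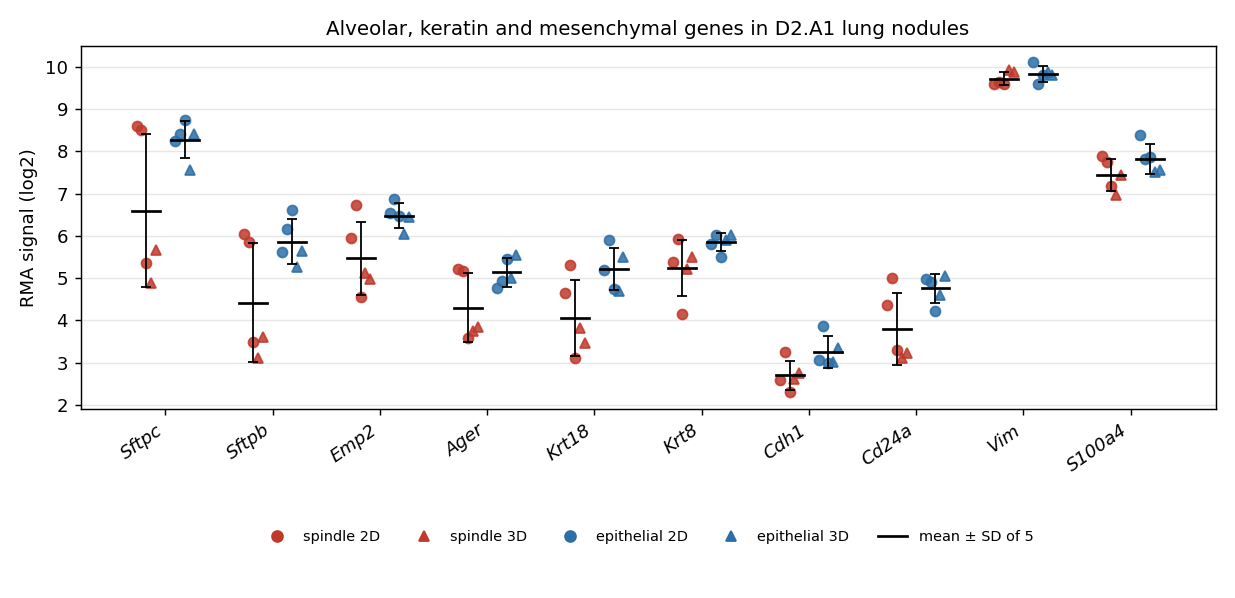
RMA signal on a log2 axis for alveolar, keratin and mesenchymal genes, spindle in red left of epithelial in blue, with circles for 2D and triangles for 3D nodules and black bars for the mean ± SD of 5. In Sftpc 2 spindle nodules sit at 8.50 and 8.60 among the epithelial nodules and 3 lie at 5.66 and below, while Vim lies at 9.58 and above on both sides.

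The keratin side of the label was visible in part. Of 23 measured genes of keratins and epithelial identity 5 were lower and 0 higher in spindle nodules at an unadjusted p under 0.05, and the median difference was -0.15. After loess 3 were lower, and 0 were lower without the 2 dim spindle nodules or with the type II mean as a covariate. The count was 3 without spindle 2D replicate 3 alone. The 4 members at 3 and above were all lower, where 19.1% of all genes at that level were. Genes of tight junctions and desmosomes did not move as a group. Of 22 measured 3 were lower and 0 higher, where 6.02% of all genes were lower. Their median difference was -0.009, with 11 differences below and 11 above 0. The 3 lower ones were the 3 members at 3 and above. Krt18, the partner of Krt8 in simple epithelia, lay at 4.64, 5.32 and 3.11 in spindle 2D and 3.82 and 3.46 in spindle 3D nodules, against 5.20, 5.89 and 4.75 in epithelial 2D and 4.71 and 5.50 in epithelial 3D nodules. Only spindle 2D nodule 2 lay among the epithelial values, and the difference was -1.14 (95% confidence interval -1.96 to -0.33, adjusted p = 0.392 by limma). Krt8 differed by -0.61 and Cdh1, the E-cadherin of epithelial junctions, by -0.55 (adjusted p = 0.52 and 0.448 by limma). Cd24a, a surface glycoprotein used with other markers to sort mammary progenitors, averaged 3.80 ± 0.85 in spindle and 4.76 ± 0.34 in epithelial nodules (SD, n = 5 each).

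These keratins and junction genes are also active in alveolar epithelium, whose list means lay low in the same 3 spindle nodules, and their part in the difference was not tested. The mesothelium, which covers the pleura, shares the keratins as well. Of 14 mesothelial genes 1 was higher and 2 lower in spindle nodules at an unadjusted p under 0.05. Over all genes 3.25% were higher and 6.02% lower, so 1 higher gene does not set the list apart. It was Upk1b, a uroplakin, with 2.62 ± 0.44 in spindle and 2.16 ± 0.23 in epithelial nodules (SD, n = 5 each). The 2 lower ones were Krt8 and Krt18. The mesothelial list mean was 2.45 to 2.80 in spindle and 2.64 to 2.75 in epithelial nodules, and it overlapped.

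Mesenchymal genes did not stand higher in the nodules labelled spindle. Of 21 measured genes of mesenchymal identity, 0 were higher and 4 lower by unadjusted p under 0.05, with 1 higher and 1 lower after loess, 0 higher and 4 lower without the 2 dim spindle nodules, and 2 higher and 0 lower with the type II mean as a covariate. Leaving out spindle 2D replicate 3, epithelial 2D replicate 1 or epithelial 3D replicate 2 left 2 lower. Over all genes 3.25% were higher and 6.02% lower, so 0 higher of 21 does not set the list apart. The 4 lower genes were among its 10 members at 3 and above, where 19.1% of all genes were lower. Vim differed by -0.11 (95% confidence interval -0.34 to 0.12), a gene named as a defining marker. Snai1, a repressor of E-cadherin, lay at 3.75 to 4.30 in spindle and 4.33 to 5.03 in epithelial nodules without overlap, and its difference was -0.53 (adjusted p = 0.325 by limma). Sox9, a factor of progenitor cells, differed by -0.53, Axl, a receptor tyrosine kinase, by -0.43 and S100a4, a calcium-binding protein of motile cells, by -0.38, and all 3 overlapped.

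Signaling through TGF-beta, which drives matrix production and can turn epithelial cells toward a mesenchymal form, was represented by 25 genes. Of these 8 were lower and 0 higher at an unadjusted p under 0.05, where 6.02% of all genes were lower. The median difference was -0.26, and 24 of the 25 differences lay below 0. That sign count alone does not set the list apart, since the median over all genes was also below 0, at -0.02. Below 0 were also 21 of 23 genes of autophagy and lysosome and 20 of 23 of the respiratory chain, against 6 of 20 of glycolysis. After loess 7 were lower, without the 2 dim spindle nodules 3 and with the type II mean as a covariate 2, and the count was 5 without spindle 3D replicate 2 or epithelial 3D replicate 2. Of the 9 members at 3 and above 6 were lower, where 19.1% of all genes at that level were. Ccn2, a matricellular target of TGF-beta, lay at 3.28, 2.90 and 2.45 in spindle 2D and 2.63 and 2.56 in spindle 3D nodules, against 3.79, 3.56 and 3.38 in epithelial 2D and 3.69 and 3.36 in epithelial 3D nodules. All spindle values were under all epithelial ones, with a difference of -0.79 (95% confidence interval -1.12 to -0.46, adjusted p = 0.161 by limma). The ligand Tgfb1 averaged 4.13 ± 0.67 in spindle and 4.89 ± 0.06 in epithelial nodules (SD, n = 5 each), with spindle 2D nodule 2 above all epithelial ones. Its target Tgfbi, a secreted matrix protein, differed by -0.84, and Ltbp2, a matrix protein of the latent TGF-beta binding family, by -0.59.

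Matrix genes went both ways. Of 21 matrix glycoproteins and proteoglycans, 4 were higher and 6 lower by unadjusted p under 0.05. Over all genes 3.25% were higher and 6.02% lower. Of the 11 members at 3 and above 1 was higher and 5 lower, where 3.15% and 19.1% of all genes were. After loess 3 were higher and 4 lower, without the 2 dim spindle nodules 2 and 3, and with the type II mean as a covariate 4 and 1. Eln, the elastin of vessel walls and alveoli, averaged 3.15 ± 0.49 in spindle and 4.09 ± 0.46 in epithelial nodules, and Mgp, which inhibits calcification, 10.67 ± 0.41 in spindle and 11.32 ± 0.33 in epithelial nodules (SD, n = 5 each). Dcn, a proteoglycan that binds collagen fibrils, averaged 2.78 ± 0.40 in spindle and 2.32 ± 0.52 in epithelial nodules, and Timp1, an inhibitor of metalloproteinases, 5.40 ± 0.45 in spindle and 4.93 ± 0.24 in epithelial nodules. Col1a1, the main chain of fibrillar collagen I, lay at 7.0, 7.04 and 6.89 in spindle 2D and 8.07 and 7.08 in spindle 3D nodules, against 6.60, 6.27 and 6.22 in epithelial 2D and 7.37 and 7.46 in epithelial 3D nodules. Within 2D all spindle values of Col1a1 were higher, by 0.62, and within 3D the 2 sides overlapped, with a difference of 0.17. The test of that difference between cultures gave -0.45 (95% confidence interval -1.20 to 0.30).

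Growth factor receptors included the gene with one of the lowest adjusted p-values. Fgfr1, a receptor tyrosine kinase for fibroblast growth factors, had signals of 4.56, 4.76 and 4.27 in spindle 2D and 5.46 and 5.63 in spindle 3D nodules, against 5.58, 5.14 and 5.25 in epithelial 2D and 6.27 and 6.41 in epithelial 3D nodules. Within each culture every spindle nodule lay below every epithelial nodule, and the signals of both sides were higher in 3D, so that the pooled values overlapped. The difference was -0.79 (95% confidence interval -1.05 to -0.54, adjusted p = 0.0634 by limma), -0.79 within 2D and -0.80 within 3D, a 1.73-fold lower signal. Over the alternatives its difference lay between -0.57 and -0.80, and between -0.72 and -0.86 when each nodule was left out, with an adjusted p of 0.0253 without spindle 2D replicate 2 and of up to 0.647 in other settings. Igfbp7, a secreted protein that binds insulin-like growth factors, differed by -0.77 (adjusted p = 0.402). Of 27 growth factors and receptors 1 was higher and 6 lower by unadjusted p under 0.05, where 6.02% of all genes were lower and 19.1% of those at 3 and above, the level of all 6. The count of lower genes was 3 after loess, with all 15 arrays, without epithelial 2D replicate 1, spindle 3D replicate 2 or epithelial 3D replicate 2, and 2 without the 2 dim spindle nodules.

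Further genes with lower values, chosen for their lack of overlap, were of several kinds. Tnfrsf11b, osteoprotegerin, the decoy receptor of RANKL, lay at 2.67 to 3.22 in spindle and 3.61 to 4.03 in epithelial nodules, a difference of -0.76 (95% confidence interval -1.03 to -0.49, adjusted p = 0.0806 by limma, and 0.046 without spindle 2D replicate 2 in a range up to 0.594). Spock2, a proteoglycan of the testican family, lay at 2.08 to 2.55 in spindle and 2.80 to 3.85 in epithelial nodules (difference -1.01, adjusted p = 0.104 by limma). Gab2, an adaptor of receptor signaling, lay at 2.08 to 2.55 in spindle and 2.69 to 3.36 in epithelial nodules. Serinc3, a membrane protein, averaged 6.41 ± 0.50 in spindle and 7.19 ± 0.10 in epithelial nodules (SD, n = 5 each). In 9 of the 12 lower genes named for the whole comparison, spindle 2D nodule 3 had the lowest value.

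Lysosomal genes were among them. Man2b1, a lysosomal mannosidase, lay at 4.61, 4.46 and 3.35 in spindle 2D and 3.62 and 3.54 in spindle 3D nodules, against 4.66, 5.23 and 4.90 in epithelial 2D and 4.89 and 5.22 in epithelial 3D nodules. Psap, the precursor of the saposins, averaged 7.03 ± 0.61 in spindle and 7.98 ± 0.17 in epithelial nodules (SD, n = 5 each). Both were without overlap, with adjusted p of 0.236 for Man2b1 and 0.293 for Psap by limma. Of 23 measured genes of autophagy and lysosome, the recycling route that the study followed in dormant cells, 6 were lower and 0 higher at an unadjusted p under 0.05, and the median difference was -0.20. After loess 2 were lower, without the 2 dim spindle nodules 1 and with the type II mean as a covariate 0. It was 1 without epithelial 2D replicate 1 and 3 without spindle 2D replicate 3, spindle 3D replicate 2 or epithelial 3D replicate 2. Over all genes 6.02% were lower, and 19.1% at a signal of 3 and above, where 10 of the list lie and 5 were lower. Lamp2, a lysosomal membrane protein, differed by -0.56 and Sqstm1, the cargo receptor p62, by -0.37 (adjusted p = 0.371 and 0.473). Atg3 and Atg7, enzymes of autophagosome formation, differed by -0.14 (95% confidence interval -0.49 to 0.21) and by -0.12 (95% confidence interval -0.33 to 0.09).

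Glycolysis stood on the other side. Of 20 measured genes of glycolysis and glucose transport 4 were higher and 0 lower in spindle nodules at an unadjusted p under 0.05, where 3.25% of all genes were higher. The median difference was 0.08, it was 0.14 after loess with 5 higher, and without the 2 dim spindle nodules 3 were higher. The count was 1 without spindle 2D replicate 1 or epithelial 2D replicate 3, 2 without spindle 2D replicate 2, epithelial 2D replicate 2 or spindle 3D replicate 2, 2 with all 15 arrays and 1 by analysis of variance. Tpi1, triosephosphate isomerase, had signals of 6.32, 6.21 and 5.71 in spindle 2D and 6.92 and 6.81 in spindle 3D nodules, against 6.08, 5.61 and 5.34 in epithelial 2D and 5.70 and 6.22 in epithelial 3D nodules. The groups overlapped in 2D and not in 3D, and the difference was 0.60 (95% confidence interval 0.21 to 1.00, adjusted p = 0.354 by limma). Pgam1, phosphoglycerate mutase, averaged 5.71 ± 0.48 in spindle and 5.04 ± 0.43 in epithelial nodules, and Eno2, an enolase, 2.53 ± 0.46 in spindle and 2.08 ± 0.20 in epithelial nodules (SD, n = 5 each). Gapdh, a glycolytic dehydrogenase often used as a loading control and named after its values were seen, averaged 10.54 ± 0.34 in spindle and 10.17 ± 0.26 in epithelial nodules.

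Pgk1, phosphoglycerate kinase, differed by 0.37 and Ero1a, a hypoxia-inducible oxidase of the endoplasmic reticulum, by 0.70, neither of them at an unadjusted p under 0.05. Of 17 hypoxia response genes 0 were higher or lower at that threshold, with 3 higher after loess and 4 with the type II mean as a covariate. Pfkfb3, the regulator of glycolysis that the study followed, had signals of 2.70, 2.69 and 2.48 in spindle 2D and 2.20 and 2.63 in spindle 3D nodules, against 2.62, 2.66 and 2.83 in epithelial 2D and 2.51 and 3.42 in epithelial 3D nodules. The sides overlapped, and the difference was -0.27 (95% confidence interval -0.64 to 0.10, adjusted p = 0.655 by limma). Itga6, an integrin of stem-like mammary cells, averaged 2.44 ± 0.13 in spindle and 2.69 ± 0.15 in epithelial nodules (SD, n = 5 each). Of 28 cell cycle genes 0 were higher and 2 lower, where 3.25% of all genes were higher and 6.02% lower. The 2 were among the 11 members at 3 and above, where 19.1% of all genes were lower. One was Cdk1, the mitotic kinase, with a difference of -0.53 (adjusted p = 0.494). The list did not stand apart from all genes, and its counts changed with the setting. They were 2 higher and 1 lower after loess and 3 higher and 0 lower without the 2 dim spindle nodules.

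The inflammatory gene with the largest difference was higher in spindle nodules. Saa3, an acute-phase serum amyloid A of macrophages and epithelium, had signals of 6.27, 5.80 and 6.42 in spindle 2D and 4.30 and 5.54 in spindle 3D nodules, against 3.25, 3.23 and 2.43 in epithelial 2D and 2.90 and 4.31 in epithelial 3D nodules. All spindle nodules were above all epithelial nodules except for 1 pair in 3D with nearly equal values. The difference was 2.44 (95% confidence interval 1.55 to 3.33, adjusted p = 0.0839 by limma), a 5.43-fold higher signal, and it was called with all 15 arrays (adjusted p = 0.0469) and with a robust variance trend (0.0373), with up to 0.594 in other settings. Ccl9, a chemokine for myeloid cells, lay at 3.90, 3.46 and 3.77 in spindle 2D and 3.30 and 2.54 in spindle 3D nodules, against 2.25, 2.74 and 2.69 in epithelial 2D and 2.93 and 2.61 in epithelial 3D nodules, so that it separated the sides in 2D alone. Cxcl14 differed by -0.68 and Cxcl16 by -0.51, both chemokines. Of 33 chemokines and cytokines 1 was higher and 4 lower by unadjusted p under 0.05. Over all genes 3.25% were higher and 6.02% lower. Of the 8 members at 3 and above 1 was higher and 2 lower, where 3.15% and 19.1% of all genes were. The list counts were 3 and 4 after loess, 1 and 3 without the 2 dim spindle nodules and 5 and 2 with the type II mean as a covariate.

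Most of the 12 genes named for higher values belong to families of near-identical copies or to RNAs of unknown role, so their probes may read several loci. Gm2046, a predicted protein gene, had signals of 3.11, 3.10 and 4.46 in spindle 2D and 2.84 and 3.05 in spindle 3D nodules, against 1.82, 1.57 and 2.08 in epithelial 2D and 1.32 and 1.43 in epithelial 3D nodules. The values did not overlap, the difference was 1.67 (95% confidence interval 1.16 to 2.18, adjusted p = 0.0634 by limma), and it was the one gene called without spindle 2D replicate 3 (adjusted p = 0.00474), with up to 0.594 in other settings. D030024E09Rik, a long noncoding RNA, averaged 3.95 ± 0.67 in spindle and 2.31 ± 0.37 in epithelial nodules, and Speer4cos, a transcribed pseudogene of a testis family, 4.01 ± 0.75 in spindle and 1.97 ± 0.64 in epithelial nodules (SD, n = 5 each). Gm5797, Gm3993, Gm7969, Gm7762, Sp110, Gm38418 and Obox3 differed by 1.12 to 2.28, also without overlap. With the type II mean as a covariate the difference was 1.15 in Gm5797, 0.85 in Gm7969, 0.71 in Gm7762, 0.77 in Sp110 and 0.54 in Obox3. Without the 2 dim spindle nodules it was 0.71 in Gm7762, 0.75 in Sp110 and 1.16 in Gm3993. Some of the 12 were called in other fits, D030024E09Rik with the variance trend (adjusted p = 0.0373), Gm38418 with it too (0.0373), and Speer4cos, Gm5797, Gm7969 and Gm38418 without spindle 2D replicate 2 (0.0225 to 0.0465). Of the 12 genes, 8 were highest in spindle 2D nodule 3 and 3 in spindle 3D nodule 2, the nodules with the lowest signals of bright genes, and the part of array signal in these values was not tested.

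The last of the 12 is a miRNA gene, Mir1954, whose hairpin lies at chr2:32652329-32652414 of GRCm38.p6. This is within the span of Eng (chr2:32646595-32682669), which differed the other way, by -0.55. Whether the probes also read Eng RNA was not tested. The array reads RNA of the hairpin locus, not the mature form. The RefSeq sequence of the mature form is shown with its seed (bases 2 to 8) in capitals to identify it.
mmu-miR-1954: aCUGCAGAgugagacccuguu
Mir1954 had signals of 6.05, 5.85 and 6.27 in spindle 2D and 5.95 and 5.64 in spindle 3D nodules, against 4.92, 4.97 and 5.52 in epithelial 2D and 4.66 and 4.28 in epithelial 3D nodules. The narrow spindle values all lay above the epithelial ones, by 1.08 on average (95% confidence interval 0.75 to 1.41, adjusted p = 0.0634 by limma), and the gene was called by 6 of the other settings, among them all 15 arrays (adjusted p = 0.0469, with up to 0.613 in others).

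**Figure D4:**
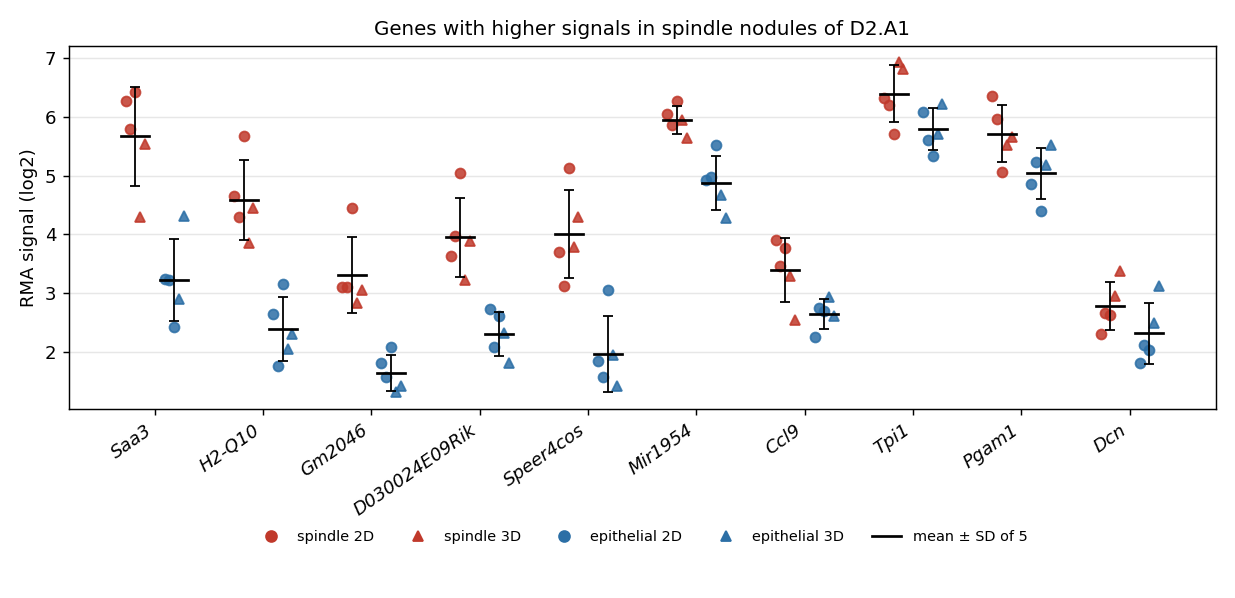
RMA signal on a log2 axis for genes with higher values in spindle nodules, spindle in red left of epithelial in blue, with circles for 2D and triangles for 3D nodules and black bars for the mean ± SD of 5. Saa3 averages 5.67 in spindle and 3.22 in epithelial nodules, and H2-Q10, Gm2046, D030024E09Rik, Speer4cos and Mir1954 do not overlap.

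Within 2D, 3 spindle against 3 epithelial nodules, limma called 0 genes (0%), with 487 higher (2.2%) and 678 lower (3.06%) by unadjusted p under 0.05 and a lowest adjusted p of 0.267. The named differences were -1.25 in Cdh5, -1.22 in Ace, the angiotensin-converting enzyme of lung endothelium, and -1.17 in Plvap, and on the other side 3.19 in Saa3, 2.35 in H2-Q10 and 1.83 in Speer4cos. Ace lay at 4.28, 4.30 and 3.08 in spindle 2D nodules, against 5.58, 4.63 and 5.12 in epithelial 2D nodules, without overlap, and the 3D sides differed by -0.42. Within 3D, 2 against 2, limma called 0 genes (0%), with 688 higher (3.1%) and 1405 lower (6.33%) by the same rule and a lowest adjusted p of 0.187. These 2 nodules a side borrow their spread from all 4 groups, and without spindle 2D replicate 3, which enters through that spread alone, 14 genes were called, 5 higher and 9 lower. Without spindle 3D replicate 1 the count was 1.

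The named genes of 3D were partly others. Apod, a lipid-binding apolipoprotein, had signals of 4.98 and 4.14 in spindle 3D nodules, against 6.56 and 6.31 in epithelial 3D nodules, and it lay at 2.58 to 3.04 in spindle 2D and 3.33 to 3.48 in epithelial 2D nodules. Its order was the same in both cultures, with a difference of -1.88 in 3D (adjusted p = 0.187 by limma) and -0.62 in 2D. Serping1, the inhibitor of complement C1, lay at 1.92 and 2.64 in spindle 3D nodules, against 4.11 and 4.69 in epithelial 3D nodules, a difference of -2.12. Sparcl1 was the third, at -1.85. On the other side stood Gm26504, a small nucleolar RNA of the Snord116 cluster with 15 transcript clusters, at 3.72, 9530057J20Rik at 3.31 and Gm5797 at 2.76, where Gm26504 lay at 5.75 and 7.45 in spindle 3D nodules, against 3.19 and 2.56 in epithelial 3D nodules.

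**Figure D5:**
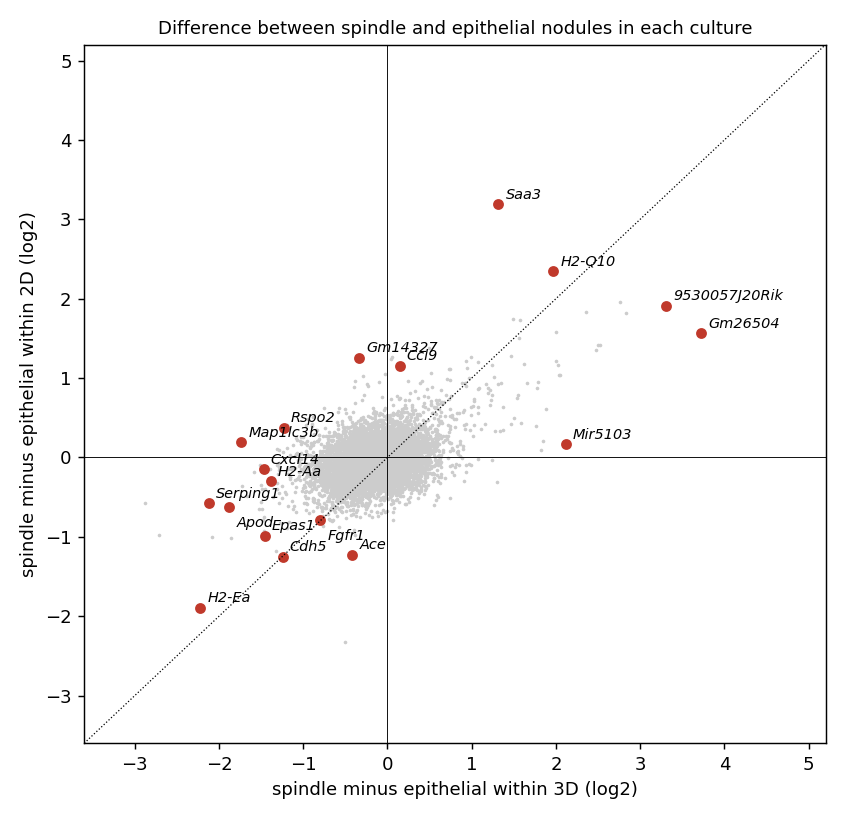
Spindle minus epithelial difference within 3D on the horizontal and within 2D on the vertical axis, both in log2 units, for the 11090 genes above the median gene in grey and named genes in red, with equal differences on the dotted line. Fgfr1 and Cdh5 lie on that line at about -0.8 and -1.2, Saa3 far above it and Mir5103 far below it.

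The difference between the cultures was tested directly, as the spindle effect in 3D minus that in 2D. Limma called 0 genes (0%), with 439 higher (1.98%) and 696 lower (3.14%) by unadjusted p under 0.05, and the lowest adjusted p was 0.772. Among genes above the median gene with an unadjusted p under 0.01 in this test, Mir5103, a miRNA gene, had the largest positive value, 1.95 (95% confidence interval 1.2 to 2.70), with 4.17 and 4.43 in spindle 3D and 2.44 and 1.94 in epithelial 3D nodules, and 2.50, 2.94 and 3.28 in spindle 2D against 2.47, 2.77 and 2.97 in epithelial 2D nodules. The sides stood apart in 3D alone. Map1lc3b, the LC3B protein of autophagosome membranes, had the largest negative value of these, -1.93 (95% confidence interval -2.96 to -0.90). It lay at 2.66 and 3.20 in spindle 3D and 4.14 and 5.18 in epithelial 3D nodules, and at 3.63, 4.18 and 3.36 in spindle 2D against 3.50, 3.25 and 3.84 in epithelial 2D nodules.

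Rspo2, a secreted amplifier of Wnt signaling, and Gm14327 followed among those genes, both at -1.60, and on the other side Speer4c at 1.73 and 1700091H14Rik at 1.64. Rspo2 lay at 2.60 and 2.36 in spindle 3D and 3.81 and 3.61 in epithelial 3D nodules, and at 2.60 to 3.36 in spindle 2D against 2.36 to 2.99 in epithelial 2D nodules. For other genes described above, the value was -1.87 in Saa3 (95% confidence interval -3.30 to -0.45), -1.08 in H2-Aa (-1.70 to -0.46), -1.33 in Cxcl14 (-2.04 to -0.62) and -1.01 in Ccl9 (-1.76 to -0.26), each with an adjusted p of 0.952. In Cdh5 it was 0.00 (-1.0 to 1.0) and in Fgfr1 -0.01 (-0.55 to 0.54), intervals that leave room for differences of that size in either direction.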

How the data were processed

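RNA of laser-microdissected lung nodules was hybridized to Affymetrix Mouse Gene 2.0 ST arrays. The authors normalized the arrays by RMA, and their deposited table holds log2 values per transcript cluster (log base taken from RMA). The submitters' processing notes name RMA, Affymetrix Expression Console and Transcriptome Analysis Console without a version. RMA scales arrays to each other, removes a shift shared by most genes and compresses weak signals. No scan batch was known. The stain is named as crystal violet and as cresyl violet.

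Of 41345 transcript clusters 23521 have 1 gene symbol, 1820 several and 16004 none. The cluster with the highest mean represented each of 22180 genes, and no filter was applied. Spindle and epithelial D2.A1 nodules, grouped by their labels, entered limma 3.58.1 (R 4.3.3) fits that held culture as a term (7 residual and 4.24 prior degrees of freedom), and as 4 groups for each culture and the difference between cultures (6 and 4.2). The tests were two-sided, with Benjamini-Hochberg adjustment over all genes and a threshold of 0.05. The script was tested on simulated data. Lists of 736 genes, 686 measured, were described by counts and medians, and Pfkfb1 was not measured. The nodules compared and the lists were chosen with earlier results of these data known. Named genes were up to 12 per direction without overlap at an unadjusted p under 0.01. Another 3 per direction were named within each culture and for the difference. All of these lie above the median gene. The 4 largest of each list were taken at any level, and genes the paper names were added. The text gives a selection of these, and others are said to be outside the rule. Alternatives were other fits, normalizations, covariates and filters, the methods' analysis of variance and each nodule left out.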

Additional observations from a re-analysis of the deposited data

Results flagged for a closer look

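In 7 of the 194 sets of 5 values examined, for both sides of 97 genes, a nodule stood far from the other 4 of its side. Chance alone gives such a gap in about 1 set in 20. Spindle 2D nodule 3 was low for Col4a1 (4.30, against 5.04 to 5.30 in the other spindle nodules), for Lama5 (3.35, against 4.47 to 4.78) and for Sqstm1 (5.79, against 6.53 to 6.78), and high for Gm2046 (4.46, against 2.84 to 3.11). Scgb1a1 was high in spindle 2D nodule 1 (6.93, against 1.73 to 2.09), and Col1a1 in spindle 3D nodule 1 (8.07, against 6.89 to 7.08). Gm14327 was high in epithelial 3D nodule 1 (2.54, against 1.61 to 1.86 in the other epithelial nodules).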

How the results depend on the processing

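The count of genes with an adjusted p under 0.05 in the whole comparison was 0, and 6 with all 15 arrays in the fit, 8 with a robust variance trend, 5 with array weights, 4 with only genes above the median gene, and 1, Gm2046, without spindle 2D nodule 3 and spindle 3D nodule 2 (chosen after seeing the data, like the median of bright genes as a covariate). It was 0 without the culture term, with cultures weighted equally, after loess or quantile normalization, with either covariate, over all transcript clusters and by analysis of variance. At 2-fold and an unadjusted p under 0.05 there were 52 genes by limma and 47 by analysis of variance. With each nodule left out the count lay between 0 and 30. The 30 came without spindle 2D replicate 2, with 3 without epithelial 2D replicate 1 and 1 each without epithelial 2D replicate 3 and spindle 2D replicate 3. Within 2D it was 1 with the variance trend and 0 to 2 with nodules left out, within 3D 0 to 14, the 14 without spindle 2D replicate 3, which enters that test only through the pooled spread, and 0 throughout for the difference between cultures. The causes were not tested.

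With the replicate block, 9 genes were called in the whole comparison and 2 within 2D. Deviations of same-numbered nodules correlated between -0.0921 and 0.166. With groups of 3 nodules in 2D and 2 in 3D, this cannot decide whether nodules of one number share a mouse. As a random block the numbers gave 0 calls. Of 97 genes under 24 settings, 3 reversed. With the type II mean as a covariate Ager was at 0.002669, Map1lc3b at 0.04777 and Rspo2 at 0.1509, and Rspo2 was at 0.008163 with the median of bright genes as a covariate. Without detection calls, weak signals near the array median could not be told from background.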

Other observations

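Some of the named genes had other values in the 5 nodules of D2.OR, which are all labelled spindle and entered no test here. H2-Q10 lay at 4.10 and 4.98 in D2.OR 2D and at 2.52 to 2.65 in D2.OR 3D nodules. Saa3 lay at 1.85 and 1.47 in D2.OR 2D and at 2.84 to 3.75 in D2.OR 3D nodules, under all spindle nodules of D2.A1. Cdh5 lay at 4.44 to 5.84, Epas1 at 4.71 to 6.34 and H2-Ea at 6.84 to 8.81 in the 5 D2.OR nodules, and Fgfr1 at 2.90 to 5.27.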
